A study of Drosophila melanogaster with 6 samples.

Results

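The glutathione S-transferase genes of Drosophila melanogaster were taken as the genes whose current symbol begins with GstD, GstE, GstO, GstS, GstT or GstZ. There were 35 of them among 16641 genes with an ID: 11 GstD, 14 GstE, 3 GstO, 1 GstS, 4 GstT and 2 GstZ. The choice used names only, but it was made with earlier results of these data known. Head RNA was sequenced from Adar5G1 males, whose strain label is y, sc, Adar5G1, in 3 libraries, and from males of the wild type stock w1118, also in 3 libraries. Adar encodes the fly enzyme that edits adenosine to inosine in transcripts, and w1118 carries a mutated white gene. All flies were 3 days old and raised at 18 C. Each genotype was 1 stock, so the Adar mutation and other differences between the stocks cannot be told apart. The labels do not say that the libraries of a group were collected separately. The p-values then describe the spread among these 6 libraries, part of which may be technical.

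Glutathione S-transferases join the tripeptide glutathione to reactive compounds, which makes these easier to export, and many also bind hydrophobic molecules. The Delta (GstD) and Epsilon (GstE) classes are the large insect classes and are best known for breakdown of insecticides and plant toxins. The Omega (GstO), Sigma (GstS), Theta (GstT) and Zeta (GstZ) classes are found across animals, and the Zeta enzyme acts in tyrosine breakdown. In insects, several of these genes are known targets of cap'n'collar, the fly counterpart of the mammalian stress factor Nrf2.

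Counts over genes were between 6872569 and 21639081 per library, of which 5792 to 15924 fell on the 35 genes. Adar itself had 5, 1 and 19 counts in Adar5G1 replicates 1, 2 and 3, against 2860, 6142 and 2602 in w1118 replicates 1, 2 and 3, as the labels say. Values below are CPM (counts per 1000000 counts over genes), scaled by the TMM composition factors of edgeR, in the order of replicates 1, 2 and 3.

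Glutathione S-transferase genes moved in both directions. Of 35 genes, 30 had at least 10 counts in at least 3 libraries and were tested, and by the edgeR quasi-likelihood test (adjusted p under 0.05 over all tested genes) 6 were higher and 6 lower in Adar5G1. The other 18 did not pass. The rises were those of GstE1, GstE9, GstE11, GstD1, GstT3 and GstT4, and the falls those of GstE2, GstE6, GstE7, GstE14, GstD9 and GstD11. Over all 10214 tested genes 13.8% passed, 8.63% higher and 5.14% lower, and the 12 called members were 40.0% of those tested. The median size of the log2 fold change, whatever its sign, was 0.59 over the members and 0.17 over all tested genes. The signed medians were 0.22 and -7.4e-05. That of the members depended on the filter, at -0.07 with no filter and 0.38 with at least 10 counts in all 6 libraries. The values of the 2 groups did not overlap for 21 members, 12 with Adar5G1 above and 9 with it below, where 31.3% of all tested genes had no overlap. Scaling by total counts alone gave 5 rises and 1 fall. Among all tested genes 5.89% passed with a change of at least 2-fold, and 3 members did, GstE1, GstE9 and GstE7. Over all genes 881 were higher and 525 lower with TMM scaling, and 791 higher and 766 lower with upper-quartile scaling.

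The count of calls changed when single libraries were left out. Each such fit also has fewer libraries and less power, so a lost call need not mean that 1 library carried it. There were 7 rises and 1 fall without Adar5G1 replicate 1, 4 and 3 without Adar5G1 replicate 2, and 6 and 2 without Adar5G1 replicate 3. There were 4 and 1 without w1118 replicate 1, 3 and 5 without w1118 replicate 2, and 5 and 3 without w1118 replicate 3. Among the 30 tested genes, Adar5G1 replicate 2 was the highest of its group for 18, and w1118 replicate 2 was the lowest of its group for 18.

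**Figure D1:**
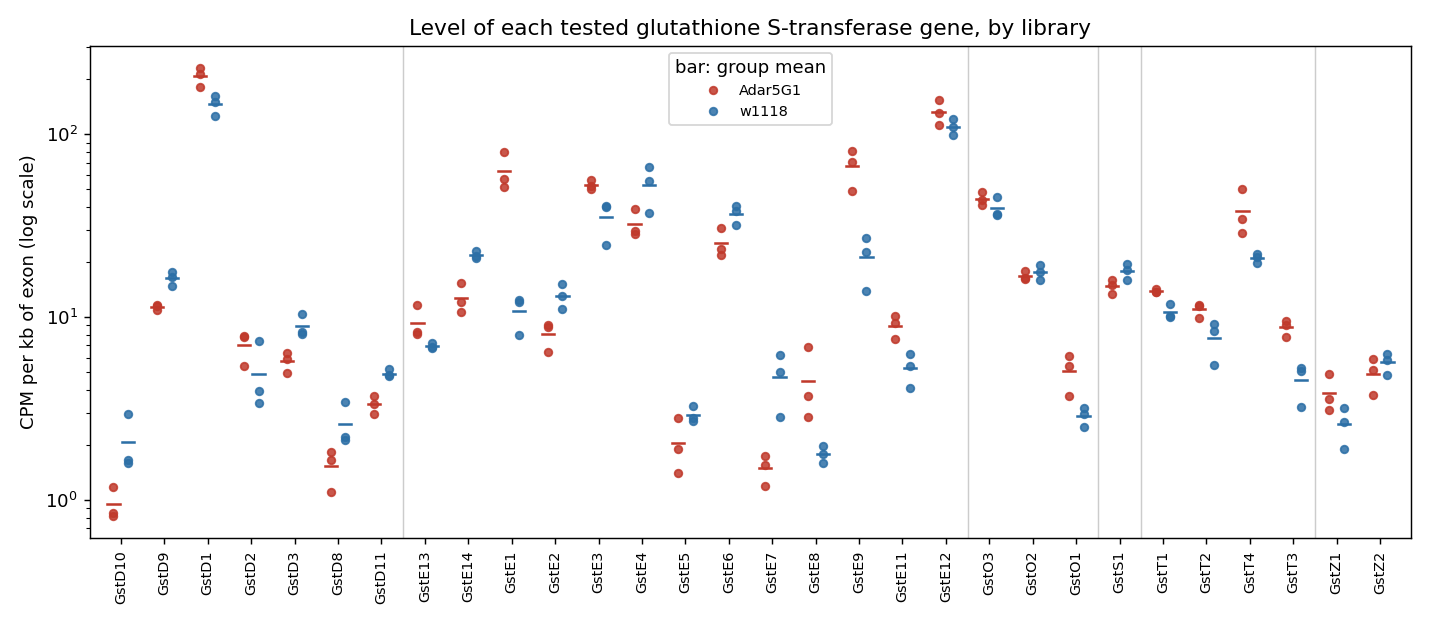
Level of each tested glutathione S-transferase gene in CPM per kb of exon (log axis), 1 point per library and a bar at each group mean, with classes separated by grey lines. GstD1 and GstE12 stand highest in both groups, and GstE1 and GstE9 show wide gaps between Adar5G1 and w1118.

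The Epsilon class held the widest spread of changes, from a log2 fold change of -1.65 to 2.50. The genes GstE1 to GstE10 lie side by side on 2R in a cluster of 13.2 kb. Its tested members did not share 1 direction. Going from left to right along the chromosome, GstE1 rose, GstE2 fell, GstE3 was higher and GstE4 and GstE5 lower without passing, GstE6 and GstE7 fell, GstE8 was higher without passing, and GstE9 rose.

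GstE1 (FBgn0034335, 2R:14285898-14286728, plus strand, build dm3) encodes an enzyme that acts on 4-hydroxynonenal, a product of lipid peroxidation. It had 47.5, 66.5 and 42.8 CPM in Adar5G1, against 6.61, 10.3 and 10.03 CPM in w1118. Every Adar5G1 library was far above every w1118 library. The change was 5.67-fold, or 2.50 ± 0.21 (SE) on the log2 scale (edgeR adjusted p = 0.000223), and among the members it was the largest. Per kb of exon, GstE1 ranked 4 of 35 members in Adar5G1 and 14 in w1118.

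GstE9 (FBgn0063491, 2R:14296553-14297340), at the other end of the cluster, had 55.8, 63.7 and 38.4 CPM in Adar5G1, against 18.0, 10.97 and 21.4 CPM in w1118. The groups did not overlap, and the lowest Adar5G1 library was replicate 3. The rise was 3.17-fold, or 1.67 ± 0.26 (SE) on the log2 scale (edgeR adjusted p = 0.00419). Its last bases overlap exons of imd on the opposite strand, and imd did not pass (log2 fold change 0.28, edgeR adjusted p = 0.505). The calls of GstE1 and GstE9 held in each of 16 alternative fits, which the other 10 called members did not.

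Between these ends, 3 members fell. GstE7 (FBgn0063493, 2R:14294429-14295193) had 1.18, 1.33 and 0.910 CPM in Adar5G1, against 3.83, 2.16 and 4.75 CPM in w1118. This was a 3.14-fold fall (log2 fold change -1.65, SE 0.36, edgeR adjusted p = 0.0176), from only 16, 9 and 19 counts in Adar5G1. The call did not hold when w1118 replicate 1 or Adar5G1 replicate 1 or 3 was left out.

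GstE2 (FBgn0063498), separated from GstE1 by 262 bases, had 8.04, 7.83 and 5.75 CPM in Adar5G1, against 13.6, 9.86 and 11.5 CPM in w1118. All Adar5G1 libraries were below all w1118 libraries (log2 fold change -0.70, SE 0.18, edgeR adjusted p = 0.0349). GstE6 (FBgn0063494) had 17.7, 23.1 and 16.5 CPM in Adar5G1, against 28.5, 24.1 and 30.3 CPM in w1118 (-0.55, SE 0.15, edgeR adjusted p = 0.0413). The groups came close to each other at Adar5G1 replicate 2 and w1118 replicate 2. Leaving out replicate 1 or 3 of either group ended both calls, as did total counts only, and leaving out Adar5G1 replicate 2 ended that of GstE2.

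The remaining 4 tested genes of the cluster missed the threshold. GstE3, among the more abundant members, had 39.5, 38.0 and 42.3 CPM in Adar5G1, against 30.5, 18.7 and 30.3 CPM in w1118, with no overlap (log2 fold change 0.61, SE 0.18, edgeR adjusted p = 0.0551). GstE8 had 2.07, 5.02 and 2.68 CPM, against 1.16, 1.44 and 1.29 CPM in w1118, also with no overlap (1.20, SE 0.36, edgeR adjusted p = 0.0655). GstE4 had 24.9, 32.7 and 23.8 CPM, against 46.4, 31.0 and 55.2 CPM in w1118, where Adar5G1 replicate 2 lay above w1118 replicate 2 (-0.71, SE 0.21, edgeR adjusted p = 0.0614). DESeq2 called all 3 of these. GstE5 had 1.03 to 2.07 CPM in Adar5G1 and 1.97 to 2.38 CPM in w1118, and the groups overlapped. GstE10, on the minus strand at the left end, had 0, 2 and 4 counts in Adar5G1 and 1, 6 and 2 in w1118 and was not tested.

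**Figure D2:**
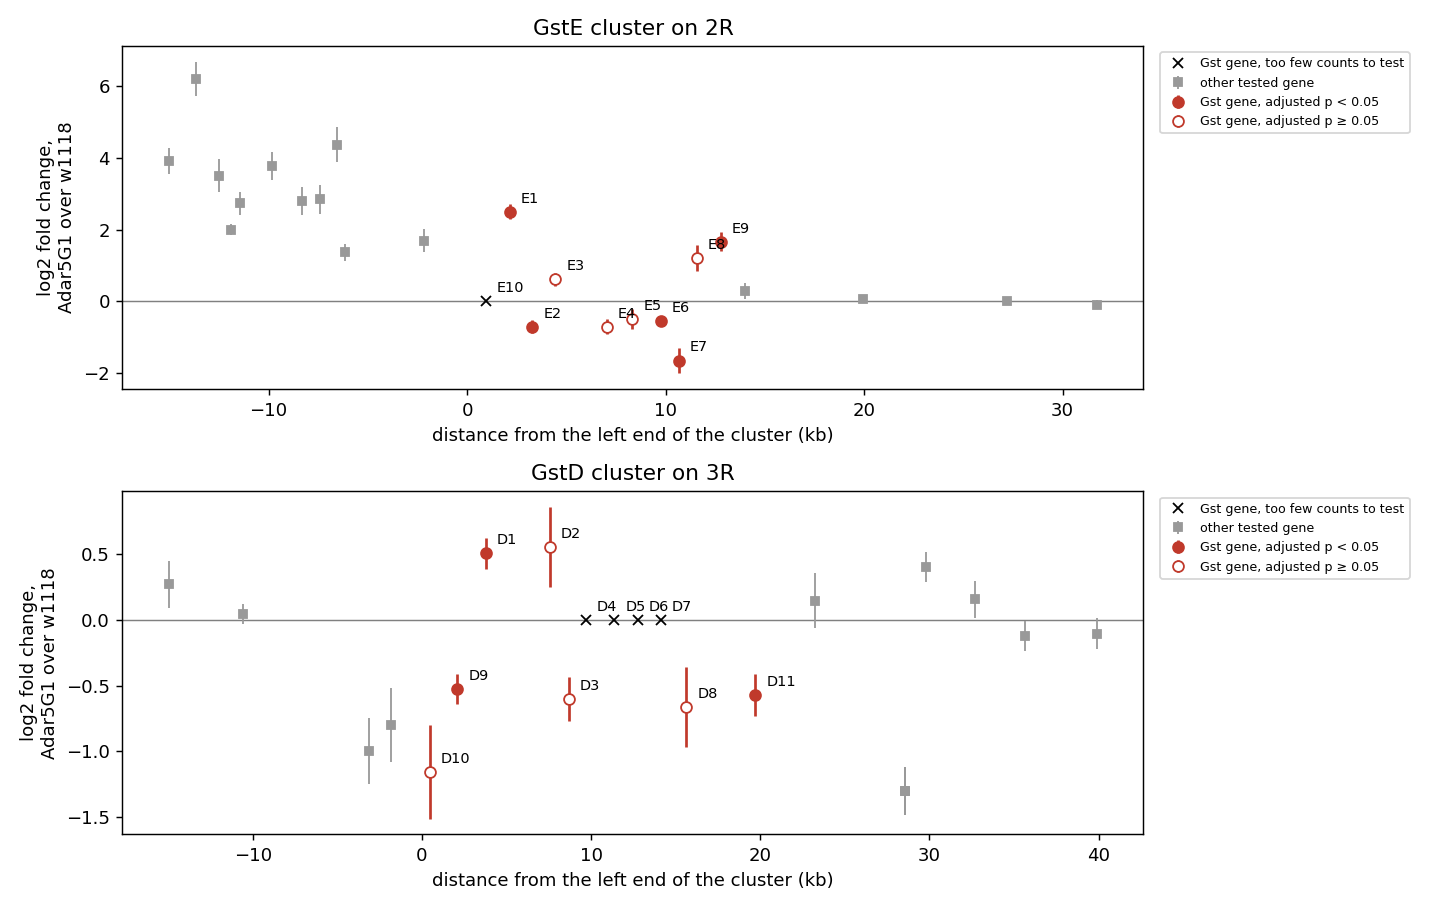
Log2 fold change of Adar5G1 over w1118 (points, with the standard error of the edgeR fit as bars) against the distance in kb from the left end of the GstE cluster (top) and the GstD cluster (bottom), with other tested genes that lie at least partly within 20 kb in grey, each point at the middle of its gene. Crosses at 0 mark untested members and carry no value. GstE1 and GstE9 stand above 0 at the ends of the GstE cluster with GstE2, GstE6 and GstE7 below 0 between them, and the genes to the left of that cluster are all above 0.

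Ratios between genes of the cluster do not depend on how libraries are scaled. GstE1 had 5.91, 8.49 and 7.44 counts for each count of GstE2 in Adar5G1, against 0.487, 1.04 and 0.869 in w1118. GstE9 had 47.3, 47.9 and 42.2 counts for each count of GstE7 in Adar5G1, against 4.70, 5.08 and 4.50 in w1118. GstE3 to GstE4 gave 1.59, 1.16 and 1.78 in Adar5G1 and 0.658, 0.604 and 0.549 in w1118. In each of these 3 pairs all Adar5G1 ratios were above all w1118 ratios. Outside the cluster, GstT4 to GstT1 gave 3.07, 4.44 and 2.50 in Adar5G1 and 2.39, 2.29 and 2.63 in w1118, which overlap. The pairs were picked after their values were seen, and the ratios carry no test.

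The genes beside the cluster differed between its sides. All 11 tested genes within 20 kb to the left rose. They were Idgf5, 1.36 kb away, and 10 Bomanin genes, which encode short secreted immune peptides and had log2 fold changes of 1.36 to 6.21. The nearest Bomanin gene, BomS6, ended 6.01 kb from the cluster. Another, BomT1, had 87, 47 and 82 counts in Adar5G1 and 4, 6 and 3 in w1118. BomT1 reached 10 counts in Adar5G1 only, so the filter favoured a rise. To the right, beyond imd, 0 of 3 tested genes (Dp1, CG5174 and PIG-O) passed (edgeR and DESeq2, 0 also at an unadjusted p under 0.05), with log2 fold changes of -0.09 to 0.07. Of these 14 genes beside the cluster, imd not counted, 78.6% passed, against 13.8% of all tested genes. Whether the position bears on GstE1 was not tested. Within 20 kb of the GstD cluster, 0 of 11 tested other genes rose and 3 fell (27.3%), CG4115, CG10096 and CG10097. CG10096 and CG10097 had identical counts.

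The 4 other Epsilon genes lie elsewhere on 2R. GstE14 (FBgn0033817, 2R:9127234-9128518), known as noppera-bo and needed for ecdysteroid synthesis in the prothoracic gland, had 15.5, 12.1 and 10.7 CPM in Adar5G1, against 21.2, 21.9 and 23.1 CPM in w1118. The w1118 libraries lay within a narrow band above all Adar5G1 libraries (log2 fold change -0.79, SE 0.14, edgeR adjusted p = 0.00837). Its call was lost with total counts only. GstE11 (FBgn0034354, 2R:14391113-14392349) had 5.75, 7.68 and 7.04 CPM, against 4.76, 3.10 and 4.10 CPM in w1118 (0.80, SE 0.20, edgeR adjusted p = 0.0336). Leaving out replicate 2 or 3 of either group ended that call, as did total counts only.

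GstE12, the most abundant member in CPM, had 182.0, 215.0 and 156.9 CPM in Adar5G1, against 154.2, 138.9 and 169.5 CPM in w1118. Adar5G1 replicate 3 lay inside the w1118 range, and the change did not pass (log2 fold change 0.26, SE 0.12, edgeR adjusted p = 0.229). GstE13 had 8.78, 12.4 and 8.52 CPM, against 7.31, 7.20 and 7.66 CPM in w1118, with no overlap but without passing (0.39, SE 0.16, edgeR adjusted p = 0.181).

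The Delta class was led by GstD1, and its other tested members were mostly lower in Adar5G1. All 11 genes lie in 20.8 kb on 3R. Of the 7 tested, 1 rose and 2 fell, where 8.63% of all tested genes rose and 5.14% fell. For 5 of them all Adar5G1 libraries lay below all w1118 libraries, where 14.3% of all tested genes lay below without overlap. GstD1 (FBgn0001149, 3R:8193539-8194990, minus strand), best known for its action on the insecticide DDT, had 152.1, 179.2 and 193.6 CPM in Adar5G1, against 126.8, 106.8 and 136.1 CPM in w1118. The groups did not overlap, and the change was 1.42-fold (log2 fold change 0.51, SE 0.12, edgeR adjusted p = 0.0222). Per kb of exon it ranked 1 among the members in both groups, at 207.6 CPM per kb in Adar5G1 and 146.2 in w1118. Leaving out Adar5G1 replicate 2 or w1118 replicate 1 or 2 ended its call, as did total counts only.

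The neighbour of GstD1, GstD9 (FBgn0038020, 3R:8191885-8193286, minus strand), had 9.07, 8.57 and 9.15 CPM in Adar5G1, against 13.9, 13.1 and 11.7 CPM in w1118. Its Adar5G1 values were close together and below all w1118 values (log2 fold change -0.52, SE 0.11, edgeR adjusted p = 0.0182). GstD1 thus had 16.8, 20.9 and 21.2 counts for each count of GstD9 in Adar5G1, against 9.11, 8.17 and 11.7 in w1118. GstD11 (FBgn0038029), at the right end of the cluster, had 3.32, 4.14 and 3.74 CPM, against 5.80, 5.32 and 5.39 CPM in w1118 (-0.57, SE 0.16, edgeR adjusted p = 0.0487). Leaving out replicate 1 or 2 of either group ended the call of GstD9, as did total counts only. That of GstD11 was lost with total counts only, DESeq2, robust dispersion and no filter, and without any 1 library.

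GstD3, GstD8 and GstD10 also had all Adar5G1 libraries below all w1118 libraries, without passing. GstD3 had 4.72, 3.69 and 4.41 CPM in Adar5G1, against 7.77, 6.04 and 6.15 CPM in w1118 (log2 fold change -0.60, SE 0.17, edgeR adjusted p = 0.0522). GstD10, with the lowest mean CPM among tested members in Adar5G1, had 10, 7 and 15 counts in Adar5G1 and 12, 26 and 24 in w1118 (-1.15, SE 0.36, edgeR adjusted p = 0.0706). GstD8 had 20, 6 and 28 counts, against 24, 32 and 16 in w1118 (-0.66, SE 0.30, edgeR adjusted p = 0.211). In raw counts, which are not scaled to depth, the groups of GstD8 and GstD10 overlap. GstD2 had 3.98, 5.76 and 5.70 CPM, against 2.90, 2.49 and 5.39 CPM in w1118, where replicate 3 lay within the Adar5G1 range (0.56, SE 0.31, edgeR adjusted p = 0.302).

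A run of 4 Delta genes, GstD4 to GstD7, had few counts in heads of both groups and was not tested. GstD5, the closest to being tested, had 1, 0 and 2 counts in Adar5G1 and 1, 10 and 6 in w1118. GstD7 had 1, 0 and 2 counts in Adar5G1 and 4, 3 and 3 in w1118. GstD4 had 1, 2 and 1 counts, against 0, 1 and 1 in w1118. GstD6 had 0 counts in each Adar5G1 library, which allows up to 0.0728 CPM over the group at 3 counts, and 2, 0 and 3 counts in w1118. Such limits cover counting error only.

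In the Theta class all 4 genes had every Adar5G1 library above every w1118 library, where 16.9% of all tested genes lay above without overlap. Of these 4 genes 2 passed, both higher, where 8.63% of all tested genes passed as higher. GstT3 (FBgn0031117, X:20338482-20340823) had 12.4, 13.0 and 10.7 CPM in Adar5G1, against 7.19, 4.43 and 6.90 CPM in w1118 (log2 fold change 0.99, SE 0.19, edgeR adjusted p = 0.0116). GstT4 (FBgn0030484, X:13298782-13303356) had 42.1, 61.0 and 35.3 CPM, against 24.1, 27.0 and 26.1 CPM in w1118 (0.82, SE 0.18, edgeR adjusted p = 0.0203). Adar5G1 replicate 2 was the highest for GstT4, and its call was lost without any 1 of the w1118 libraries.

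GstT1 and GstT2, neighbours on 2R, did not pass. GstT1 had 13.7, 13.7 and 14.1 CPM in Adar5G1, against 10.1, 11.8 and 9.92 CPM in w1118 (log2 fold change 0.38, SE 0.11, edgeR adjusted p = 0.0626). GstT2 had 10.3, 10.3 and 8.76 CPM, against 4.87, 8.09 and 7.44 CPM in w1118 (0.48, SE 0.19, edgeR adjusted p = 0.143).

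The Omega, Sigma and Zeta classes had 0 of 6 tested genes past the threshold (edgeR and DESeq2), with 2 at an unadjusted p under 0.05. GstO1, the least abundant Omega gene, had 5.83, 5.17 and 3.54 CPM in Adar5G1, against 3.02, 2.38 and 2.80 CPM in w1118, with no overlap (log2 fold change 0.82, SE 0.24, edgeR adjusted p = 0.062). GstO3 averaged 39.1 ± 3.23 CPM in Adar5G1 and 34.7 ± 4.64 in w1118, and GstO2 29.3 ± 1.51 and 30.7 ± 2.87 CPM (SD, n = 3 each). The groups overlapped for both genes. GstS1, the only Sigma gene and abundant in flight muscle, had 34.1, 36.4 and 30.3 CPM, against 44.4, 36.3 and 41.1 CPM in w1118 (-0.28, SE 0.11, edgeR adjusted p = 0.137). Its groups overlapped narrowly at replicate 2. Of the Zeta genes, GstZ1 averaged 3.50 ± 0.834 CPM in Adar5G1 and 2.36 ± 0.590 in w1118, and GstZ2 11.4 ± 2.50 and 13.1 ± 1.78 CPM (SD, n = 3 each), with overlap for both.

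Summed over all 35 genes, the level was 791.1, 910.2 and 762.6 CPM in Adar5G1, against 671.9, 583.7 and 727.4 CPM in w1118. The groups did not overlap but came within 35.2 CPM of each other. GstD1, GstE1 and GstE9 made up 32.3%, 27.0% and 22.4% of the difference between the summed means. This difference is net of falls, so the percentages of the rises add to more than the whole. GstE12, which was not called, stood at 19.0%, GstT4 at 12.7% and GstE4 at -10.7%. Without GstE1 and GstE9, a sum made after their values were seen, the totals were 687.8, 780.1 and 681.5 CPM in Adar5G1 and 647.3, 562.4 and 696.0 CPM in w1118, which overlap. A level per head cannot be separated here into the number of expressing cells and the RNA in each.

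Shares of the family's counts, which do not depend on how libraries are scaled, also differed. GstE1 took 6.31 ± 0.888% of all glutathione S-transferase counts in Adar5G1 and 1.38 ± 0.391% in w1118, and GstE9 6.36 ± 1.15% and 2.50 ± 0.551% (SD, n = 3 each). The rest of the cluster, without these genes, took 12.07%, 11.997% and 12.27% in Adar5G1, against 18.8%, 15.4% and 18.7% in w1118. The level of the same genes was 95.4, 109.2 and 93.6 CPM in Adar5G1 and 126.1, 90.01 and 135.7 CPM in w1118, which overlap, and the counts of GstE1 and GstE9 are part of each share's denominator. GstS1 took 4.09 ± 0.187% in Adar5G1 and 6.16 ± 0.484% in w1118. For each of these 4 shares the groups did not overlap. The same held for GstD1 and the Theta class, larger in Adar5G1, and for the Omega and Zeta classes, smaller, so it was not particular to these shares. For Omega the gap was narrow, with 9.73% in Adar5G1 replicate 1 and 9.75% in w1118 replicate 1. The Omega level averaged 73.2 CPM in Adar5G1 and 68.1 in w1118, so its smaller share was not a lower level. The Theta genes took 9.91 ± 0.874% in Adar5G1 and 7.53 ± 1.09% in w1118 (SD, n = 3 each). GstD1 took 19.2%, 19.7% and 25.4% in Adar5G1, against 18.9%, 18.3% and 18.7% in w1118, with Adar5G1 replicate 3 far above the others. GstE12 overlapped, at 22.4 ± 1.61% in Adar5G1 and 23.3 ± 0.425% in w1118.

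**Figure D3:**
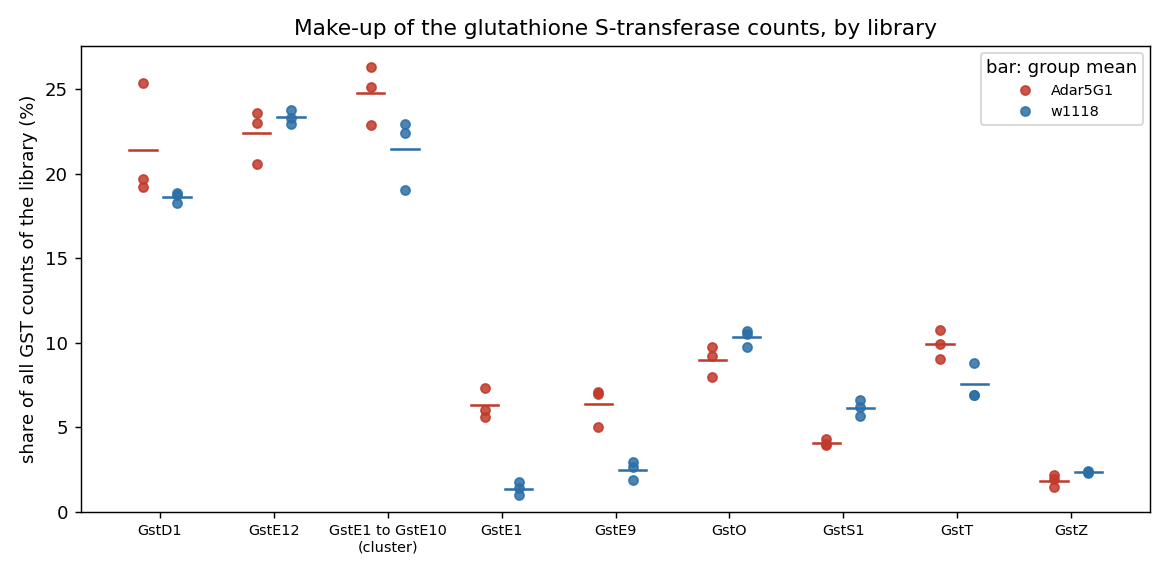
Share of each library's glutathione S-transferase counts (%) taken by single genes, by the GstE cluster and by classes, 1 point per library and a bar at the group mean. GstE1, GstE9, GstD1 and GstT take larger shares in each Adar5G1 library than in any w1118 library. GstS1, GstO and GstZ take smaller shares, GstO by a narrow margin.

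Calls in both directions fell on genes with and without introns. In the deposited annotation 16 members had 1 exon, of which 12 were tested, with 2 rises and 3 falls. Of 19 with several exons 18 were tested, with 4 rises and 3 falls. Calls were 41.7% of tested members with 1 exon and 38.9% of those with several, against 13.8% of all tested genes. Exons of 0 members overlapped another gene on the same strand. Close copies within the Delta and Epsilon clusters can lose or share reads, since the option to count reads mapping to several places was not set, so the separate levels of such neighbours are uncertain. How far this reaches was not measured here.

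Genes of glutathione synthesis, glutathione use and their regulators, and 7 other detoxification genes (cytochromes P450 and epoxide hydrolases), were read from the same fit. The list of glutathione use also held Trxr1 and Trx2, genes of the thioredoxin system. Of the 22 names of the first 3 lists 20 were matched, 17 were tested, 5 rose and 1 fell. That is 35.3% of those tested, where 13.8% of all tested genes passed, and their median log2 fold change was 0.070, against -7.4e-05 over all tested genes. With the 7 other detoxification genes there were 24 tested, 7 rises and 2 falls. Asking for at least 10 counts in all 6 libraries gave 6 rises in place of 7. Those 7 rises became 4 when Adar5G1 replicate 1, Adar5G1 replicate 2 or w1118 replicate 2 was left out, and also 4 when libraries were scaled by total counts.

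In glutathione synthesis 1 of 4 tested genes rose and 1 fell, where 13.8% of all tested genes passed. Cth, cystathionine gamma-lyase, which releases cysteine, had 29.7, 24.4 and 20.9 CPM in Adar5G1, against 10.8, 11.9 and 14.3 CPM in w1118 (log2 fold change 1.02, SE 0.16, edgeR adjusted p = 0.00433). Cbs, cystathionine beta-synthase, the step before it, averaged 18.3 ± 1.70 CPM in Adar5G1 and 30.1 ± 1.25 in w1118 (-0.73, edgeR adjusted p = 0.0021), a call lost with total counts only. The glutamate-cysteine ligase subunits Gclc and Gclm did not pass. Gss1 and Gss2, the glutathione synthetase genes, had 0 and 1 counts over all 6 libraries. They lie side by side on X, each with 2838 bases in 10 exons. The option to count reads mapping to several places was not set, so their counts cannot be read as their expression. Whether such reads were lost here was not tested.

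In the list of glutathione use, which also held Trxr1 and Trx2, 3 of 9 tested genes rose, where 8.63% of all tested genes did. Mgstl, a membrane-bound glutathione transferase of another protein family, averaged 79.3 ± 8.04 CPM in Adar5G1 and 27.9 ± 8.13 in w1118 (SD, n = 3 each), 2.87-fold higher (edgeR adjusted p = 0.00166). Gtpx, a glutathione peroxidase homologue, averaged 90.4 ± 10.03 CPM in Adar5G1 and 56.0 ± 7.03 in w1118 (1.61-fold, edgeR adjusted p = 0.00563), a call lost with total counts only. Ggt-1, a gamma-glutamyl transpeptidase, was 1.35-fold higher (edgeR adjusted p = 0.0369), which was lost with DESeq2, with total counts only and without replicate 1 or 2 of either group. The Omega-class gene se, which makes a drosopterin precursor and carries a name outside the rule, averaged 65.3 ± 3.17 CPM in Adar5G1 and 62.1 ± 3.67 in w1118, with overlap. Trxr1, whose thioredoxin reductase stands in for the glutathione reductase that flies lack, averaged 102.8 ± 14.9 and 103.2 ± 8.09 CPM (SD, n = 3 each).

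Of the regulators 1 of 4 passed, where 13.8% of all tested genes did. Keap1, which holds the cap'n'collar protein in check, averaged 24.3 ± 1.82 CPM in Adar5G1 and 19.1 ± 0.802 in w1118 (log2 fold change 0.35, edgeR adjusted p = 0.0465), a call that 6 of 16 alternative fits kept. The gene cnc, which encodes cap'n'collar, averaged 254.5 ± 28.2 CPM in Adar5G1 and 219.4 ± 8.72 in w1118 (0.22, edgeR adjusted p = 0.171), and its partner maf-S 20.8 ± 3.04 and 27.1 ± 1.25 CPM (-0.37, edgeR adjusted p = 0.0778). Of 7 other detoxification genes 2 rose and 1 fell. The cytochrome P450 genes Cyp6a2 and Cyp12d1-p were 4.04-fold and 4.84-fold higher, and Cyp6a8 was 3.38-fold lower, with 40.3 ± 19.7 CPM in Adar5G1 and 139.1 ± 37.2 in w1118 (SD, n = 3 each). The call of Cyp6a8 was lost with robust dispersion and that of Cyp12d1-p without w1118 replicate 2.

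Photoreceptor markers, which should be abundant in heads, summed to 11675 to 13375 CPM in Adar5G1 and 13887 to 15041 CPM in w1118. Some markers of several tissues differed between the groups as well. Of 5 fat body markers 4 were tested and 3 rose, and their summed level was 4264 to 5310 CPM in Adar5G1 and 2343 to 3741 CPM in w1118, nearly all of it apolpp. Among these rises, Fbp1 had 18, 22 and 23 counts in Adar5G1 and 2, 2 and 2 in w1118. Of 6 midgut markers 4 were tested and 3 rose. The summed level of the 6 was 217.1 to 283.7 CPM in Adar5G1 and 70.8 to 108.0 CPM in w1118, nearly all of it LManII. The other tested midgut marker, Mal-A1, was lower without passing (log2 fold change -0.63), and alphaTry and betaTry had 0 counts in each library. Muscle markers fell for 2 of 4. Of 4 tested photoreceptor markers 1 fell (inaD), of 5 antennal markers 1 fell (Os-C), and of 4 tested neuronal markers 1 rose (Syt1). Over all tested genes 13.8% passed. Other markers of these lists went the opposite way without passing, such as nSyb (log2 fold change -0.17) and Obp83b (0.10). Cyp4g1, the oenocyte marker, had too few counts to be tested. Glial markers had 0 of 5 past the threshold (edgeR, 1 at an unadjusted p under 0.05, 0 with DESeq2) and hemocyte markers 0 of 3 (edgeR, 1 at an unadjusted p under 0.05, 1 with DESeq2). Hemocyte summed levels were 81.7 to 150.8 CPM in Adar5G1 and 82.6 to 228.0 CPM in w1118. The part of fat body or midgut transcripts in the rises of GstE1, GstE9, GstT3 and GstT4 was not tested.

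**Figure D4:**
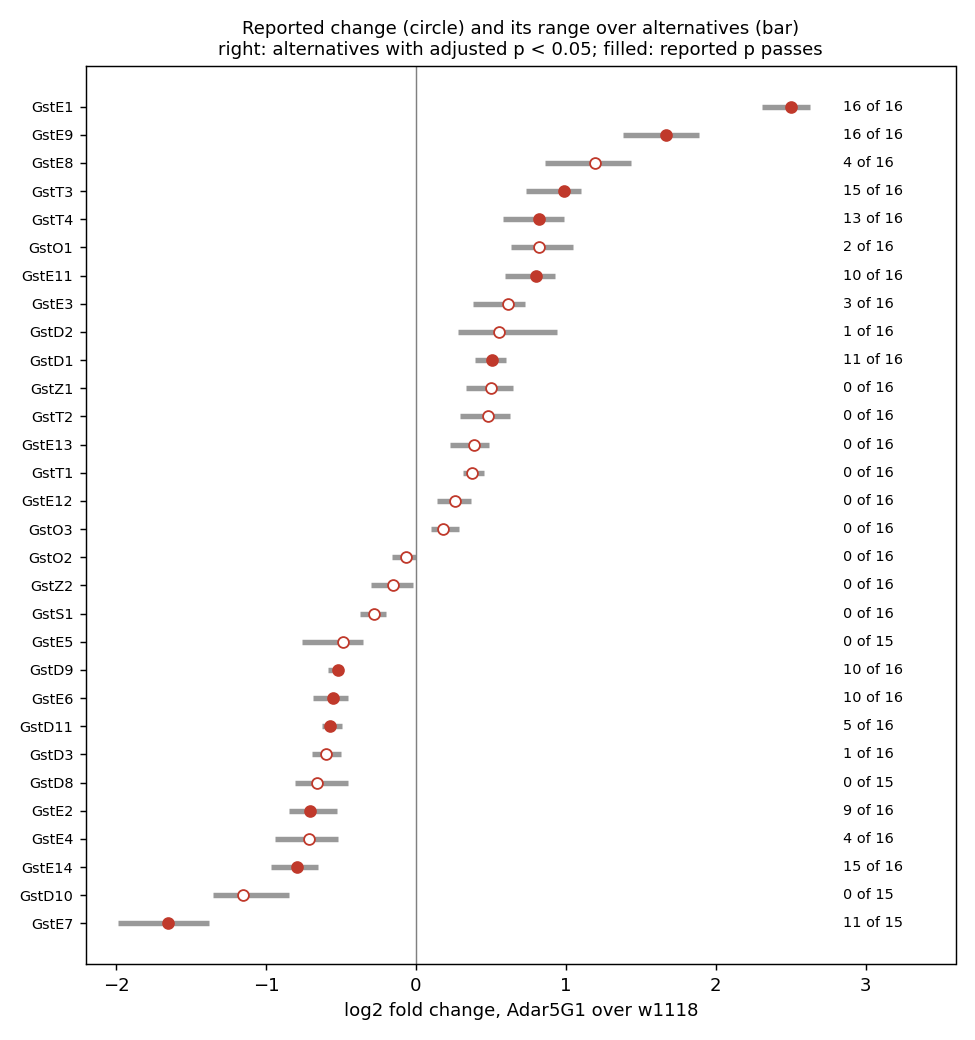
Log2 fold change of Adar5G1 over w1118 for each tested member (circle, filled where the adjusted p was under 0.05) with its range over the alternative fits (bar) and the number of fits that called it. GstE1 and GstE9 were called in 16 of 16 fits, and all 30 members kept their direction in every fit run.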

How the data were processed

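Whole-number fragment counts per gene were deposited by the authors for 3 Adar5G1 and 3 w1118 libraries. Per the file headers, featureCounts 1.4.5-p1 counted reverse-stranded fragments over exons of each FlyBase 5.53 gene they overlap. TopHat and build dm3 are named in the submitters' processing notes. Symbols were paired with 15924 of 16641 gene IDs, and 3 listed names were matched through RefSeq synonyms. The row with no gene ID held 0.369% to 0.633% of counts and was not used.

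Genes with at least 10 counts in at least 3 libraries were tested with edgeR 4.0.16 in R 4.3.3 (TMM, quasi-likelihood F test, group as the only term) and Benjamini-Hochberg adjustment over all tested genes. Standard errors, approximate, are the absolute log2 fold change over the root of F. No pair of libraries of a group agreed within counting noise (chi-square of counts per degree of freedom 30.6 to 309), so none was treated as deposited more than once. This does not show separate collections. The test was tried on simulated counts. The members and gene lists were chosen with earlier results of these data known. Every member is named, with listed glutathione and detoxification genes past the threshold and the regulators cnc, Keap1 and maf-S. Gclc, Gclm, Gss1, Gss2, se, Trxr1 and the named tissue markers were chosen after their values were seen. Alternatives were DESeq2 1.42.0, limma-voom (limma 3.58.1), other scalings, filters and thresholds, robust dispersion, a replicate block and leaving out each library.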

Additional observations from a re-analysis of the deposited data

How the results depend on the processing

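All 30 tested members kept their direction in each alternative fit run, 16 for most and 15 for 4 members. GstE1 and GstE9 stayed called in all 16, while 4 other rises and 6 falls lost their call in at least 1. Against 6 rises and 6 falls, the threshold of 0.01 left 2 and 1, a minimum of 2-fold 2 and 1, and total counts only 1 fall. DESeq2 called 8 and 6, limma-voom 7 and 6, upper-quartile scaling 6 and 8, and no filter 9 and 6. Leaving out 1 library gave 3 to 7 rises and 1 to 5 falls.

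Over all genes, 881 rose and 525 fell. The counts were 445 and 249 at 0.01, 428 and 174 at 2-fold, 556 and 215 with total counts only, and 791 and 766 with upper-quartile scaling. Without 1 library they ran from 503 to 939 rises and 288 to 493 falls. Of the glutathione and other detoxification genes together, 7 rose and 2 fell. The counts were 4 and 1 both at 2-fold and with total counts only, and robust dispersion left 1 fall. Without 1 library there were 4 to 7 rises and 2 to 3 falls. The cause of these differences was not tested.

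The replicate number as a block left 3 rises (GstE1, GstE9 and GstT4) and 1 fall (GstE14) among members, and 464 and 274 over all genes. Deviations of same-numbered libraries from their group means correlated at 0.11, -0.18 and -0.28 across genes, and not every library correlated best with its own number. With 3 libraries per group, these values cannot decide whether same-numbered libraries were collected together. The 5 untested members, GstD4 to GstD7 and GstE10, had at most 10 counts in any library, too few to compare at this depth. The cause of their low counts was not tested.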
